A study of Homo sapiens with 12 samples.

Results

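The genes described here are 54 genes of mitosis and the spindle, measured in K562 cells, a human chronic myeloid leukaemia line that carries the BCR-ABL1 fusion kinase. They were listed by name for their known roles in mitotic entry, the spindle checkpoint, the centromere, the kinesin motors, spindle assembly and chromosome structure. The list was chosen with earlier results of these data known. These genes are 54 of the 11963 genes that have a probe set of their own on the Affymetrix U133A 2.0 array. Cells were given imatinib (STI571, 0.5 µM), nilotinib (AMN107, 0.05 µM) or DMSO, the solvent control, for 24 hours, with 4 arrays of total RNA in each group. Imatinib and nilotinib are inhibitors of the ABL kinase, and the labels give each dose as the IC50 of its drug. The doses therefore differ between the drugs, and the comparison between them is one of these doses. All 3 groups are 1 cell line, and the labels do not say whether the 4 arrays of a group came from separate cultures. The p-values therefore measure only the spread between these arrays, which may be technical. The question was how the RNA of these genes in each treated group compared with that in the DMSO group, and how the treated groups compared with each other.

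Entry into mitosis is driven by CDK1 bound to cyclin B or cyclin A, switched on by CDC25 phosphatases. Polo-like and Aurora kinases then build the spindle. The checkpoint proteins of the BUB and MAD families hold back the anaphase-promoting complex until every chromosome is attached. Most of these genes are transcribed late in the cell cycle, held off in resting cells by the DREAM complex and activated by B-MYB and FOXM1. In proliferating leukaemia cells their RNA is a usual readout of how many cells are in G2 and M. These are bulk measurements, so fewer cells in mitosis and less RNA of these genes per cell cannot be told apart.

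The CHR (cell cycle genes homology region) and the CCAAT box, the element of NF-Y, are the promoter elements best known for these genes, and they were looked for in the promoters of the members. Shown, of the members called lower with nilotinib than with imatinib, are the windows of the 6 with the lowest difference that have an entry in the RefSeq promoter table (build GRCh38.p14). Each is the 170 bases just before the transcription start, on the coding strand. They lie at chr4:1720461-1720630 (+) for TACC3, chr10:60778161-60778330 (+) for CDK1, chr5:69166980-69167149 (+) for CCNB1, chr1:197146670-197146839 (-) for ASPM, chr5:892714-892883 (+) for TRIP13 and chr4:121823884-121824053 (-) for CCNA2. Capitals mark a match to the CHR, searched as TTTGAA or TTCGAA, or to the CCAAT box, searched as CCAAT, on either strand (read as TTCAAA and ATTGG where the match is on the other strand).
TACC3: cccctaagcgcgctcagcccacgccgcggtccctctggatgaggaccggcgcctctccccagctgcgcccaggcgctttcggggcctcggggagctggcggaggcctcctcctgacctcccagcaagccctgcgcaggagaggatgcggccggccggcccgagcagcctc
CDK1: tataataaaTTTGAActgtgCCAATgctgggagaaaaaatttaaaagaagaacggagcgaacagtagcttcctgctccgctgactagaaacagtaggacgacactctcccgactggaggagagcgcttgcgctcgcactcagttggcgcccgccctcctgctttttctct
CCNB1: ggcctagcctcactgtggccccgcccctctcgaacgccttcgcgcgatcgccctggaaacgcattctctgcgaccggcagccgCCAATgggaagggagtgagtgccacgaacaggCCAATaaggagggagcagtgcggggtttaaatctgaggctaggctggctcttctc
ASPM: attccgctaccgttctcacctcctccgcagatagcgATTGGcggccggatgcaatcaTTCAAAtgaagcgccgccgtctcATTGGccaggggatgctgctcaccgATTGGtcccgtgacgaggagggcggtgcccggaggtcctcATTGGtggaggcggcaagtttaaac
TRIP13: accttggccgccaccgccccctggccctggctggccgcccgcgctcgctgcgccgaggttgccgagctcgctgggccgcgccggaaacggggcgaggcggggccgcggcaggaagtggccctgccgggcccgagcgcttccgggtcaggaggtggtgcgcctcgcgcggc
CCNA2: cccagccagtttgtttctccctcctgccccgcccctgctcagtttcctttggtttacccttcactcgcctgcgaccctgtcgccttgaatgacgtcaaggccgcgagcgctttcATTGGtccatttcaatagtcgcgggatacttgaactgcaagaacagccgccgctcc
The CDK1 window holds 1 CHR and 1 CCAAT match, that of ASPM 1 CHR and 4 CCAAT matches, that of CCNB1 2 CCAAT matches and that of CCNA2 1. The windows of TACC3 and TRIP13 hold neither set of letters. Other forms of the CHR were not searched for, and the 50 bases after the start were left out. A window without a match may therefore still hold or adjoin such an element.

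Over the 250 bases before the start, 45 of the 54 members had an entry in the table. The CHR was found in 23 of these 45 promoters (51.1%), against 658 of the 6638 tested genes with an entry (9.91%) and 14.6% of all 27305 entries. The CCAAT box was found in 32 of the 45 (71.1%), against 36.2% of tested genes and 33.0% of all entries. Both were present in 19 members (42.2%), against 4.22% of tested genes, and the 2 matches shared a base in 1 member. Among the 19 members with an entry that were lower with nilotinib than with imatinib, 12 held a CHR and 14 a CCAAT box. Among the 26 others with an entry, 11 held a CHR and 18 a CCAAT box. These are counts of letters in a window, and they were not tested.

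The deposited MAS5 signals, a linear brightness with no unit, had a trimmed mean of 499.9 on every array. The median signal was 119 ± 2.17 (SD, n = 4) with DMSO, 142 ± 8.71 with imatinib and 179 ± 12.1 with nilotinib, and its part in the results below was not tested beyond the centring given with each comparison. The ratio of the 3' to the 5' actin control, a measure of RNA integrity and labelling, ranged from 1.82 to 5.49 and was above 3.5 on 4 arrays, nilotinib 1 and 2 and imatinib 5 and 6. The signal of the 28S ribosomal RNA control ranged from 5277 to 5550 on the DMSO arrays, from 18636 to 21436 with imatinib and from 21127 to 26130 with nilotinib, so that every treated array lay above every DMSO array. The part of this control in the results below was not tested. All 8 K562 markers with a probe set passed the filter on low values, with mean DMSO signals of 368 to 10694. Summed over these 8, the DMSO arrays ranged from 27430 to 31701, those of imatinib from 55745 to 62995 and those of nilotinib from 63314 to 71109. Of 11 markers of T cells, B cells, monocytes, fibroblasts and epithelium, 10 had a probe set and 4 passed the filter. Summed over these 10, the DMSO arrays ranged from 727 to 1022, those of imatinib from 571 to 874 and those of nilotinib from 1010 to 1564, with CD14 at a mean of 6.16 in the DMSO group. The part of either marker list in the results below was not tested.

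Against DMSO, far more members fell than rose with nilotinib, while with imatinib about as many rose as fell. All 54 members passed the filter on low values, and each is represented by its brightest probe set. A member was called when limma's adjusted p, over all 8021 genes tested, was below 0.05. With nilotinib, 26 of 54 members fell (48.1%) and 2 rose (3.7%), where 23.5% of all genes tested were called lower and 34.7% higher, 58.2% in all. The median log2 fold change of the members was -0.20, and that of all genes 0.15. With imatinib, 9 members fell (16.7%) and 10 rose (18.5%), against 17.3% of all genes lower and 22.0% higher, 39.4% in all, so the shares of members called were near the background. MKI67 with both drugs and SMC4 with nilotinib had probe sets called in opposite directions (below). They are counted here by the brightest, and 24 members fell with nilotinib and 7 with imatinib without these 2 genes. The median of the members was 0.01, and that of all genes 0.09.

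Set directly against each other, 26 of 54 members (48.1%) were lower with nilotinib than with imatinib and 0 were higher, where 8.22% of all genes tested were lower and 5.82% higher. At an unadjusted p below 0.05 from the same limma fit, 35 members were lower and 0 higher, where 14.6% of all genes were lower and 16.7% higher. The median difference of the members was -0.33, and that of all genes 0.05. The arrays of the drugs did not overlap for 23 members, against 18.0% of all genes tested. They did not overlap with those of DMSO for 28 members with nilotinib and 13 with imatinib, against 50.7% and 39.1% of all genes. On each single nilotinib array the median member lay 0.25 to 0.30 below the DMSO mean on the log2 scale, with values of -0.29, -0.25, -0.30 and -0.30. On the imatinib arrays it lay at -0.03, 0.15, -0.05 and 0.08. All 4 nilotinib arrays were thus alike, and all lay below the imatinib arrays.

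The counts depend on how the arrays are brought to a common level. Centring each array on its median signal moved the median of all genes from 0.09 to -0.13 for imatinib, from 0.15 to -0.37 for nilotinib and from 0.05 to -0.25 between the drugs. The medians of the members became -0.22, -0.72 and -0.63. The members called were then 17 lower and 2 higher with imatinib, 50 lower and 0 higher with nilotinib, and 47 lower and 0 higher between the drugs. Those not called with nilotinib after centring were CCNF, UBE2C, KIF22 and NUSAP1. Apart from these, every member given below as not passing with nilotinib in the uncentred values, such as PLK1 and AURKB, was called lower after centring. Of all genes, 2276 were then lower and 820 higher with imatinib, where the uncentred values gave 1390 and 1767. For nilotinib 3947 were lower and 831 higher, in place of 1885 and 2781, and between the drugs 2646 and 76, in place of 659 and 467. With quantile normalization, 7 members were lower and 10 higher with imatinib, 26 and 3 with nilotinib, and 23 and 0 between the drugs. Of all genes, 16.7% were then lower and 18.3% higher with imatinib, 25.9% and 24.7% with nilotinib, and 7.88% and 4.86% between the drugs. With cyclic loess, 7 members were lower and 10 higher with imatinib, 28 and 3 with nilotinib, and 22 and 0 between the drugs. Of all genes, 18.9% were then lower and 19.0% higher with imatinib, 25.9% and 25.3% with nilotinib, and 6.1% and 4.74% between the drugs. With each of these scalings more members were called lower than higher with nilotinib, while with imatinib that was so in the centred values alone. After centring, 28.4% of all genes were lower and 10.2% higher with imatinib, so the 17 of 54 members lower there were near that share. With nilotinib the shares of all genes were then 49.2% and 10.4%, and between the drugs 33.0% and 0.948%.

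Without the 4 arrays of high actin ratio, 15 members were lower and 0 higher with nilotinib than with imatinib, where 3.85% of the 7991 genes then tested were lower and 1.35% higher. Of the 26 members lower on all arrays, 14 did not pass there, with differences of -0.58 to -0.17 and adjusted p of 0.0578 to 0.281. They were FOXM1, AURKA, NEK2, BUB1B, BUB3, TRIP13, ESPL1, CENPM, BIRC5, HMMR, RACGAP1, TOP2A, NCAPG and SMC4. Within those 4 arrays, 2 for each drug, the median difference of the members was -0.32, with 48 members below 0 and 6 above. Within the other 4 arrays it was -0.35, with 50 below and 4 above.

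**Figure D1:**
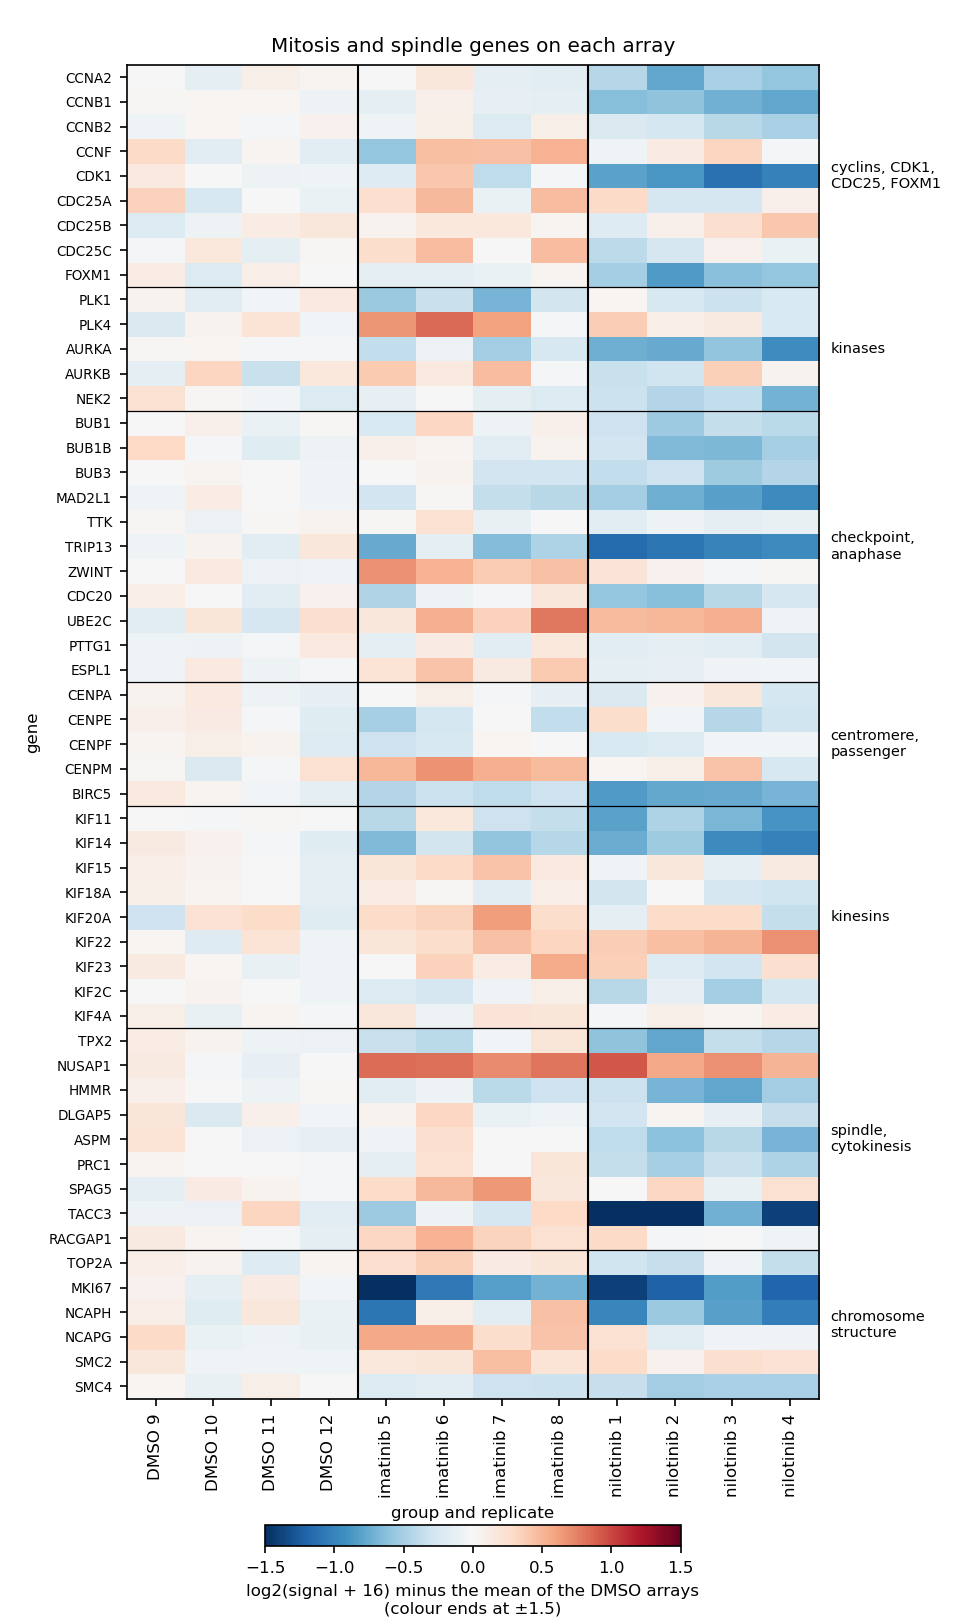
Rows are the 54 members, grouped by role, and columns the 12 arrays. Colour gives log2(signal + 16) minus the mean of the 4 DMSO arrays, red for higher and blue for lower, with the scale ending at 1.5 in both directions. Most rows turn blue under nilotinib, where 26 members were called lower and 2 higher, while the imatinib columns hold both colours, with 9 lower and 10 higher (17 and 2 after centring on the array medians). After that centring, 28.4% of all genes were lower and 10.2% higher with imatinib.

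Of the 9 cyclins, CDK1, its CDC25 activators and FOXM1, 5 fell with nilotinib and 0 passed with imatinib in the uncentred values. Of all genes tested, 23.5% fell and 34.7% rose with nilotinib, and 17.3% fell and 22.0% rose with imatinib. The same shares apply to the counts of each role below. CDK1, the kinase that drives mitotic entry, gave signals of 5050, 4545, 4337 and 4344 on the DMSO arrays, 3970, 6018, 3488 and 4518 with imatinib and 2599, 2477, 2093 and 2255 with nilotinib. Every nilotinib array lay below every other array, and the imatinib arrays lay on both sides of DMSO. Its log2 fold change, on log2(signal + 16) here and below, was -0.95 with nilotinib (SE 0.12, adjusted p = 1.89e-06) and -0.05 with imatinib (adjusted p = 0.776). The difference between the drugs was -0.90 (95% interval -1.15 to -0.65, adjusted p = 9.97e-05). Both other probe sets of CDK1 also fell with nilotinib, by less, at -0.37 each. Their differences between the drugs were smaller too, at -0.51 and -0.53 (adjusted p = 0.00107 and 0.00139).

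CCNB1, or cyclin B1, the partner of CDK1, had DMSO signals of 3194, 3218, 3210 and 2983, imatinib signals of 2862, 3308, 2889 and 2852, and nilotinib signals of 2025, 2060, 1909 and 1827. The nilotinib arrays again lay below all others, at a log2 fold change of -0.68 (SE 0.07, adjusted p = 1.17e-07), where imatinib gave -0.08 (adjusted p = 0.37). After centring on the array medians CCNB1 was called lower with imatinib too (-0.31, adjusted p = 0.0119). FOXM1, a transcription factor that activates G2 and M genes, gave 440, 350, 437 and 406 with DMSO, 368, 365, 380 and 420 with imatinib and 280, 219, 257 and 266 with nilotinib. It fell by 0.64 on the log2 scale with nilotinib (SE 0.14, adjusted p = 0.000532), and its value with imatinib was -0.08 (adjusted p = 0.665). The nilotinib arrays of FOXM1 did not overlap with either other group. CCNA2 (cyclin A2) and CCNB2 (cyclin B2) fell with nilotinib as well (-0.57 and -0.34), but CCNB2 did not pass under quantile normalization (-0.17, adjusted p = 0.0629). Between the drugs CCNB1, FOXM1, CCNA2 and CCNB2 differed by -0.60, -0.56, -0.53 and -0.32, each with an adjusted p of at most 0.0133. The CCNB2 difference had -0.21 under quantile normalization (adjusted p = 0.0715) and -0.22 under cyclic loess (adjusted p = 0.0699), without passing, and FOXM1 did not without the arrays of high actin ratio (-0.58, adjusted p = 0.0714). CCNF and the CDC25A, CDC25B and CDC25C phosphatases did not pass in any comparison. Their brightest probe sets had values of 0.10 to 0.30 with imatinib and -0.17 to 0.13 with nilotinib. A dimmer CDC25C probe set had -0.85 with imatinib (adjusted p = 0.0758), where the brightest had 0.30. Between the drugs it had 0.37, where the brightest had -0.47, and neither passed.

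**Figure D2:**
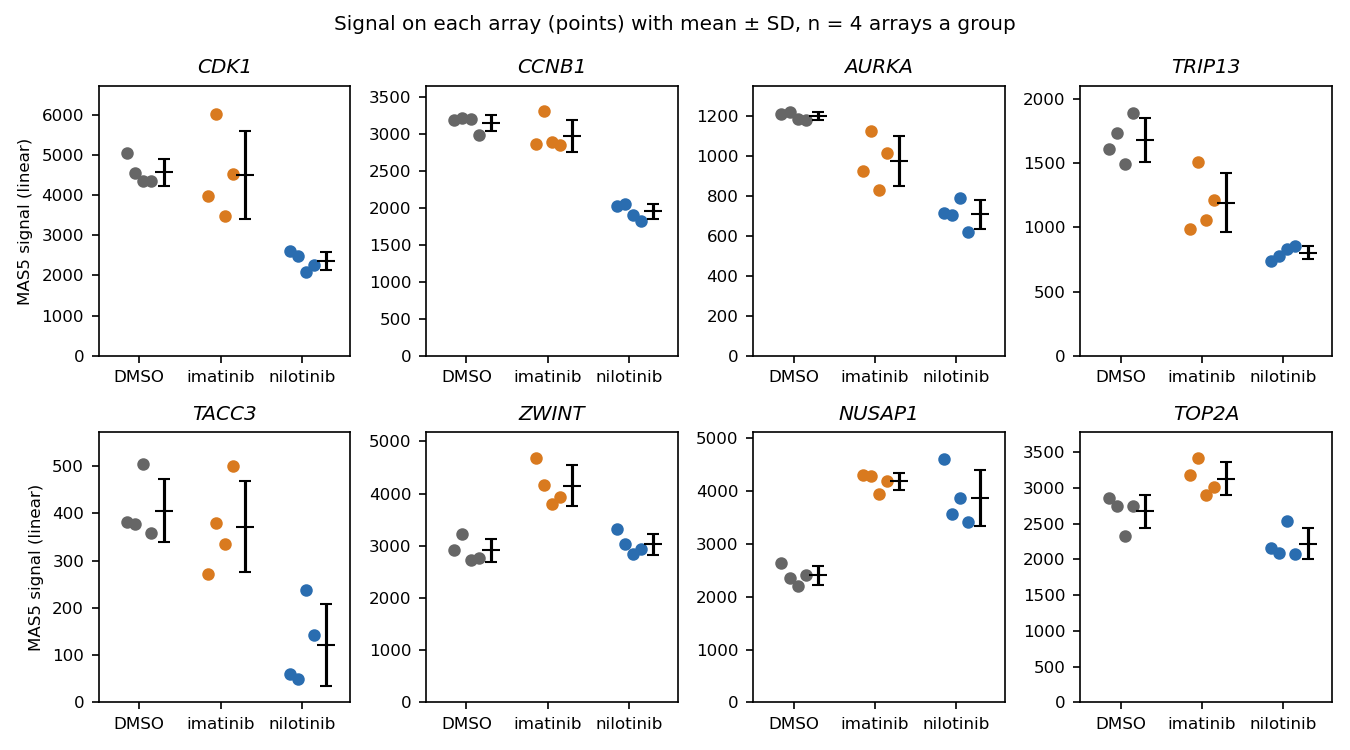
Points are the MAS5 signals (linear scale from 0) of 8 members on the 4 arrays of each group, and the bar beside them is the mean with 1 SD. CDK1, CCNB1, AURKA, TRIP13 and TACC3 have all nilotinib arrays below the other groups. ZWINT is raised with imatinib and NUSAP1 with both drugs, and TOP2A lies above DMSO with imatinib and mostly below it with nilotinib.

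Among the 5 mitotic kinases, imatinib lowered PLK1 and AURKA and raised PLK4, while nilotinib lowered AURKA and NEK2. PLK1, the polo-like kinase of mitotic entry and centrosome maturation, had signals of 532, 456, 498 and 569 with DMSO, 342, 403, 311 and 419 with imatinib and 524, 432, 405 and 436 with nilotinib. The imatinib arrays lay below all DMSO arrays, while the nilotinib arrays overlapped with both. The log2 fold change was -0.47 with imatinib (SE 0.13, adjusted p = 0.00848) and -0.19 with nilotinib (adjusted p = 0.224), and the drugs differed by 0.28 (95% interval -0.00 to 0.55, adjusted p = 0.16). After centring on the array medians PLK1 was called lower with nilotinib as well. PLK4, which starts centriole duplication, gave between 462 and 623 on the DMSO arrays, 863, 987, 828 and 531 with imatinib and 699, 578, 596 and 458 with nilotinib. Imatinib array 8 lay within the DMSO range, and the others were higher, for a log2 fold change of 0.52 (SE 0.16, adjusted p = 0.0155). That of nilotinib was 0.09 (adjusted p = 0.641). The PLK4 call was lost without imatinib 6 (0.42, adjusted p = 0.0627) or DMSO 9 (0.45, adjusted p = 0.0558), after centring (0.30, adjusted p = 0.194) and without the arrays of high actin ratio (0.29, adjusted p = 0.217). Another PLK4 probe set gave 0.31 with imatinib without passing (adjusted p = 0.06) and rose by 0.33 with nilotinib (adjusted p = 0.033).

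AURKA, the Aurora kinase of the spindle poles, gave 1213, 1221, 1187 and 1181 with DMSO, 927, 1127, 831 and 1015 with imatinib and 717, 705, 793 and 618 with nilotinib. The 3 groups did not overlap, in the order DMSO, imatinib, nilotinib. Its log2 fold change was -0.30 with imatinib (SE 0.10, adjusted p = 0.022) and -0.75 with nilotinib (adjusted p = 4.3e-06), and the drugs differed by -0.45 (adjusted p = 0.00707), or by -0.38 without the arrays of high actin ratio (adjusted p = 0.111). The imatinib call was lost without imatinib 5 or 7 or DMSO 9 or 10, with adjusted p from 0.0503 to 0.0878 and values from -0.30 to -0.23. The next brightest AURKA probe set gave -0.33 with imatinib and -0.30 with nilotinib, with 0.03 between the drugs (adjusted p = 0.898). The dimmest had -0.30 between the drugs and passed in no comparison. So the difference between the drugs in AURKA was called by 1 of its 3 probe sets. The mean of the AURKA probe sets passed neither with imatinib (-0.22, adjusted p = 0.217) nor between the drugs (-0.24, adjusted p = 0.246). It passed with nilotinib (-0.46, adjusted p = 0.00829). AURKB, the Aurora kinase of the chromosomal passenger complex, gave 350, 489, 303 and 433 with DMSO, 512, 429, 538 and 382 with imatinib and 303, 312, 500 and 401 with nilotinib. Its 3 groups overlapped, and it did not pass in any comparison (0.24 with imatinib, -0.06 with nilotinib). NEK2, a kinase of centrosome separation, gave 1481, 1277, 1228 and 1092 with DMSO, 1161, 1263, 1140 and 1089 with imatinib and 1004, 928, 972 and 765 with nilotinib. It fell by 0.46 with nilotinib (adjusted p = 0.000949), and the drugs differed by -0.34 (adjusted p = 0.0346). That difference was lost when nilotinib 2 or 4 or imatinib 5, 6 or 7 was left out, with adjusted p from 0.0539 to 0.109, under cyclic loess (-0.29, adjusted p = 0.07) and without the arrays of high actin ratio (-0.36, adjusted p = 0.158). A dimmer NEK2 probe set had 0.19 with nilotinib and did not pass. The mean of the NEK2 probe sets passed neither with nilotinib (-0.14, adjusted p = 0.309) nor between the drugs (-0.03, adjusted p = 0.871).

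Of the 11 genes of the spindle checkpoint and anaphase, 6 fell and 0 rose with nilotinib, and 2 fell and 2 rose with imatinib. The shares of all genes tested were 23.5% and 34.7% with nilotinib, and 17.3% and 22.0% with imatinib. TRIP13, the ATPase that remodels the checkpoint protein MAD2, had DMSO signals of 1606, 1738, 1492 and 1887, imatinib signals of 987, 1505, 1061 and 1211 and nilotinib signals of 741, 781, 829 and 855. The nilotinib arrays lay below all others, and 3 of the 4 imatinib arrays below all DMSO arrays. Its fold change on the log2 scale was -0.50 with imatinib (SE 0.11, adjusted p = 0.00153) and -1.05 with nilotinib (SE 0.11, adjusted p = 2.74e-07). The drugs differed by -0.55 (95% interval -0.78 to -0.31, adjusted p = 0.00437), or by -0.42 without the arrays of high actin ratio (adjusted p = 0.0578). MAD2L1, which encodes MAD2, gave 3854, 4315, 3961 and 3858 with DMSO, 3258, 4051, 3119 and 2989 with imatinib and 2798, 2395, 2269 and 2059 with nilotinib. It had -0.26 with imatinib (SE 0.10, adjusted p = 0.0385) and -0.75 with nilotinib (adjusted p = 2.44e-06). Its imatinib array 6 lay within the DMSO range, and the call was lost without imatinib 5, 7 or 8 or any 1 of the 4 DMSO arrays, with adjusted p from 0.052 to 0.12. Under quantile normalization it had -0.20 (adjusted p = 0.0924) and under cyclic loess -0.24 (adjusted p = 0.0502), and passed in neither.

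BUB1B, the checkpoint pseudokinase BUBR1, had signals of 1076, 854, 766 and 825 with DMSO, 925, 901, 772 and 908 with imatinib and 710, 548, 541 and 616 with nilotinib. It fell by 0.53 with nilotinib (SE 0.12, adjusted p = 0.000872), and the drugs differed by -0.53 (adjusted p = 0.00649), the imatinib value being 0.0019. BUB1, the checkpoint kinase of the kinetochore, gave 1309, 1375, 1221 and 1317 with DMSO, 1108, 1619, 1234 and 1371 with imatinib and 1049, 892, 1012 and 985 with nilotinib. All nilotinib arrays of BUB1 were the lowest, at a log2 fold change of -0.40 (adjusted p = 0.00244) and a difference from imatinib of -0.42 (adjusted p = 0.011). A dimmer BUB1 probe set had -0.44 and -0.42 there without passing. The mean of the BUB1 probe sets passed with nilotinib (-0.42, adjusted p = 0.0232) but not between the drugs (-0.42, adjusted p = 0.0727). BUB3, the partner that brings BUB1 and BUB1B to the kinetochore, fell by 0.41 with nilotinib (adjusted p = 0.000237). Its difference between the drugs of -0.28 (adjusted p = 0.0265) was lost without nilotinib 3 or 4 or imatinib 5 or 6 (adjusted p from 0.0597 to 0.0963), and with quantile normalization (-0.16) and cyclic loess (-0.18). The BUB1B difference between the drugs had an adjusted p of 0.0701 without the arrays of high actin ratio (-0.52).

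CDC20, the activator of the anaphase-promoting complex that the checkpoint blocks, had signals of 654, 612, 541 and 638 with DMSO, 440, 577, 598 and 686 with imatinib and 401, 387, 452 and 511 with nilotinib. It fell by 0.47 with nilotinib (SE 0.14, adjusted p = 0.00596), and its value with imatinib was -0.10 (adjusted p = 0.601). ZWINT, a kinetochore protein that recruits the checkpoint, moved the other way under imatinib, with signals of 2916, 3223, 2729 and 2773 with DMSO, 4687, 4166, 3801 and 3944 with imatinib and 3316, 3026, 2850 and 2932 with nilotinib. All imatinib arrays lay above all others. The rise was 0.51 on the log2 scale (SE 0.08, adjusted p = 3.21e-05), or 0.28 after centring on the array medians (adjusted p = 0.0351), and nilotinib gave 0.06 (adjusted p = 0.53), or -0.46 after centring (adjusted p = 0.000573). Under quantile normalization ZWINT was higher with nilotinib than with DMSO (0.23, adjusted p = 0.0107), and under cyclic loess it had 0.18 (adjusted p = 0.0512). ESPL1, the separase that cuts cohesin, gave 1019, 1168, 997 and 1040 with DMSO, 1216, 1426, 1160 and 1386 with imatinib and 951, 963, 1012 and 1026 with nilotinib. It rose by 0.29 with imatinib (SE 0.09, adjusted p = 0.0136), but had 0.06 after centring (adjusted p = 0.693) and 0.26 without the arrays of high actin ratio (adjusted p = 0.0543). Nilotinib minus imatinib was -0.45 in ZWINT (adjusted p = 0.0011) and -0.38 in ESPL1 (adjusted p = 0.00836). The ESPL1 difference was -0.31 without the arrays of high actin ratio (adjusted p = 0.143). TTK, UBE2C and PTTG1 (securin) did not pass in any comparison.

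**Figure D3:**
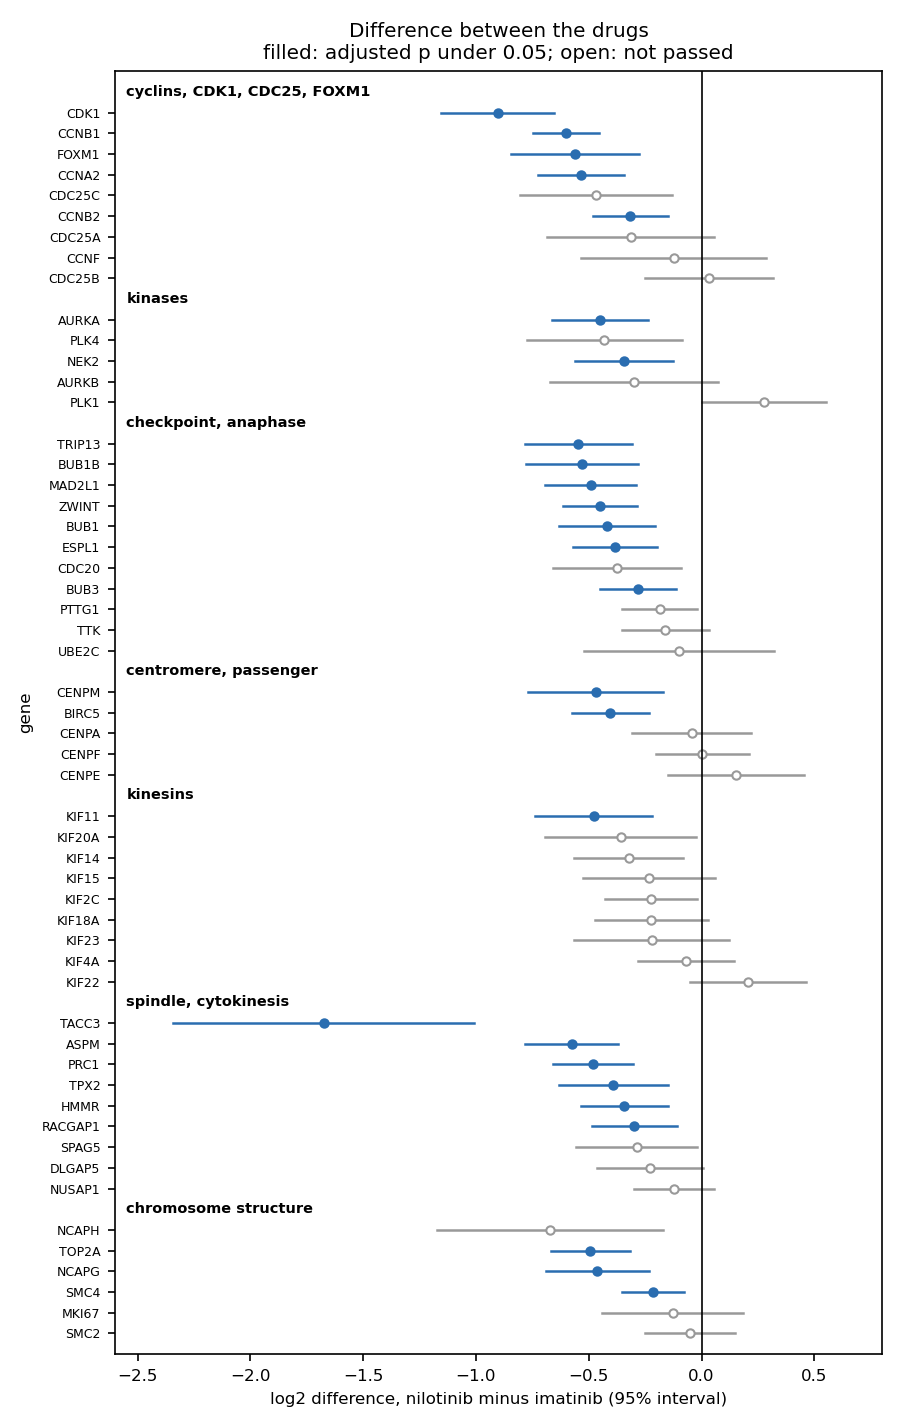
Points are the log2 differences, nilotinib minus imatinib, of the 54 members by role, with 95% intervals from limma. Filled points passed at an adjusted p below 0.05 (26 members, all below 0), and open points did not (28 members). TACC3 is plotted at -1.67, with the widest interval, -2.34 to -1.01, and had -1.09 without the arrays of high actin ratio.

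Of the 5 centromere and chromosomal passenger genes, BIRC5 fell with both drugs by its brightest probe set, and CENPM rose with imatinib. BIRC5, or survivin, a subunit of the chromosomal passenger complex, had signals of 1731, 1608, 1519 and 1428 with DMSO, 1155, 1251, 1197 and 1261 with imatinib and 865, 913, 920 and 962 with nilotinib. The 3 groups did not overlap. The log2 fold change was -0.36 with imatinib (SE 0.08, adjusted p = 0.00143) and -0.77 with nilotinib (adjusted p = 2e-07), and the drugs differed by -0.40 (adjusted p = 0.00344), or by -0.38 without the arrays of high actin ratio (adjusted p = 0.0578). The next brightest BIRC5 probe set gave -0.23 with imatinib, -0.40 with nilotinib and -0.17 between the drugs. The dimmest gave 0.17, -0.23 and -0.40, and neither passed in any comparison. The mean of the BIRC5 probe sets did not pass with imatinib (-0.14, adjusted p = 0.268). It passed with nilotinib (-0.47, adjusted p = 0.000621) and between the drugs (-0.32, adjusted p = 0.0373). CENPM, of the constitutive centromere network, gave 392, 331, 381 and 457 with DMSO, 556, 629, 567 and 544 with imatinib and 396, 413, 527 and 325 with nilotinib. The imatinib arrays were the highest, with a rise of 0.54 (SE 0.14, adjusted p = 0.00482), or 0.32 after centring (adjusted p = 0.11). The CENPM difference between the drugs, -0.47 (adjusted p = 0.0348), was lost when any 1 of nilotinib 1, 2 and 4 or of the 4 imatinib arrays was left out, with adjusted p from 0.0536 to 0.106. CENPA, the histone of the centromere, and CENPE and CENPF, which act at the kinetochore, did not pass in any comparison. A dimmer CENPF probe set rose by 0.46 with nilotinib (adjusted p = 0.0224), where the brightest had -0.13.

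Of the 9 kinesins, KIF14 fell with both drugs, KIF11 and KIF2C with nilotinib, and KIF22 rose with nilotinib. KIF14, a motor of cytokinesis, had signals of 1435, 1369, 1290 and 1149 with DMSO, 820, 1074, 861 and 965 with imatinib and 773, 896, 667 and 637 with nilotinib. Every treated array lay below every DMSO array, and the drugs overlapped. The log2 fold change was -0.49 with imatinib (SE 0.12, adjusted p = 0.00219) and -0.81 with nilotinib (adjusted p = 8.7e-06), and the difference of -0.32 did not pass (adjusted p = 0.0677). KIF11, or Eg5, which pushes the spindle poles apart, gave 929, 910, 939 and 928 with DMSO, 690, 1033, 747 and 719 with imatinib and 524, 665, 571 and 494 with nilotinib. Imatinib array 6 was above all DMSO arrays and the other 3 were below them, for -0.23 with imatinib (adjusted p = 0.148), while nilotinib gave -0.71 (SE 0.12, adjusted p = 7.69e-05). The drugs differed by -0.48 (adjusted p = 0.015), and by -0.35 without imatinib 6 (adjusted p = 0.0574). KIF22, a chromosome-arm motor, gave 392, 335, 446 and 371 with DMSO, 437, 464, 525 and 483 with imatinib and 500, 533, 554 and 629 with nilotinib. The nilotinib arrays lay above all DMSO arrays, for a rise of 0.51 (SE 0.12, adjusted p = 0.00174), but the value was -0.017 after centring on the array medians (adjusted p = 0.92). KIF2C, the depolymerase MCAK, fell by 0.33 with nilotinib (adjusted p = 0.00682). KIF15, KIF18A, KIF20A, KIF23 and KIF4A did not pass in any comparison, with values of 0.01 to 0.37 with imatinib and -0.21 to 0.05 with nilotinib.

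Of the 9 genes of spindle assembly and cytokinesis, 5 fell and 1 rose with nilotinib, and 1 fell and 3 rose with imatinib. The shares of all genes tested were 23.5% and 34.7% with nilotinib, and 17.3% and 22.0% with imatinib. TACC3, which joins clathrin and ch-TOG on spindle microtubules and is a substrate of Aurora A, had signals of 381, 377, 505 and 359 with DMSO, 271, 380, 335 and 499 with imatinib and 60.3, 49.0, 237 and 142 with nilotinib. The nilotinib arrays lay below all others, and their mean was 122 ± 87.1 (SD, n = 4) against 405 ± 67.1 with DMSO. The log2 fold change was -1.82 with nilotinib (SE 0.32, adjusted p = 8.92e-05) and -0.14 with imatinib (adjusted p = 0.76), and the drugs differed by -1.67 (adjusted p = 0.00231). The signals on nilotinib 1 and 2 were under the level of the filter on low values, 80.6, so the size of this fall is not exact. These lowest nilotinib arrays were those of high actin ratio, and differed from nilotinib 3 and 4 by -1.51 on the log2 scale. Without the arrays of high actin ratio, nilotinib gave -1.06 against DMSO (adjusted p = 0.00125) and -1.09 against imatinib (adjusted p = 0.0275), so the call held while the value shrank.

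NUSAP1, which bundles spindle microtubules near chromosomes, had signals of 2645, 2358, 2202 and 2417 with DMSO, 4309, 4276, 3938 and 4194 with imatinib and 4607, 3567, 3861 and 3418 with nilotinib. Every treated array lay above every DMSO array, with no gap between the drugs. It rose by 0.79 with imatinib (SE 0.08, adjusted p = 3.44e-07) and by 0.67 with nilotinib (SE 0.08, adjusted p = 1.82e-06), but after centring on the array medians by 0.57 (adjusted p = 0.000379) and 0.15 (adjusted p = 0.264). Its dimmer probe set gave 0.65 with each drug and passed with nilotinib only (adjusted p = 0.039, against 0.0566 with imatinib). SPAG5, or astrin, which holds kinetochores to microtubules, gave 462, 560, 533 and 501 with DMSO, 625, 723, 815 and 581 with imatinib and 514, 640, 475 and 605 with nilotinib. RACGAP1, of the centralspindlin complex of cytokinesis, gave 2104, 1960, 1864 and 1730 with DMSO, 2381, 2755, 2409 and 2236 with imatinib and 2330, 1889, 1907 and 1830 with nilotinib. In both genes the imatinib arrays lay above all DMSO arrays and the nilotinib arrays overlapped with DMSO. They rose with imatinib by 0.40 (SE 0.13, adjusted p = 0.0185) and 0.35 (SE 0.09, adjusted p = 0.00414). After centring neither passed, at 0.17 (adjusted p = 0.301) and 0.12 (adjusted p = 0.438), and the SPAG5 call was lost without imatinib 7 (0.31, adjusted p = 0.0769) or DMSO 9 (0.35, adjusted p = 0.0617). RACGAP1 was lower with nilotinib than with imatinib (-0.30, adjusted p = 0.0334), which was lost without nilotinib 2, 3 or 4 or imatinib 6 or 7 (adjusted p from 0.0541 to 0.114), and with quantile normalization (-0.22) and cyclic loess (-0.21).

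ASPM, which organises the spindle poles, had signals of 1945, 1689, 1577 and 1535 with DMSO, 1619, 1991, 1671 and 1682 with imatinib and 1285, 1088, 1255 and 1026 with nilotinib. PRC1, which crosslinks the midzone, gave 1883, 1840, 1823 and 1798 with DMSO, 1658, 2158, 1830 and 2088 with imatinib and 1430, 1290, 1451 and 1331 with nilotinib. In both genes all nilotinib arrays were the lowest and the imatinib arrays lay around DMSO. ASPM fell with nilotinib at -0.53 (SE 0.10, adjusted p = 0.000145) and PRC1 at -0.41 (SE 0.08, adjusted p = 0.000374), and the drugs differed by -0.58 (adjusted p = 0.000928) and -0.48 (adjusted p = 0.00118). HMMR, a spindle assembly factor and hyaluronan receptor, gave 3300, 3123, 2965 and 3166 with DMSO, 2793, 2983, 2365 and 2525 with imatinib and 2497, 1931, 1826 and 2177 with nilotinib. It had -0.24 with imatinib (adjusted p = 0.0476) and -0.58 with nilotinib (SE 0.09, adjusted p = 3.18e-05). The HMMR call with imatinib was lost when any 1 of imatinib 5, 7 and 8, the 4 DMSO arrays or nilotinib 4 was left out (adjusted p from 0.0514 to 0.159), and with quantile normalization (-0.17) and cyclic loess (-0.21). TPX2, which activates Aurora A on the spindle, fell by 0.54 with nilotinib (adjusted p = 0.000607). Both genes were lower with nilotinib than with imatinib, HMMR at -0.34 (adjusted p = 0.0204) and TPX2 at -0.39 (adjusted p = 0.0317). The first was lost without nilotinib 2 or 3 or imatinib 6 (adjusted p from 0.0583 to 0.075) and the other without nilotinib 1 or 2 or imatinib 7 or 8 (adjusted p from 0.0631 to 0.101). Both were also lost with quantile normalization and cyclic loess, HMMR at -0.25 with each and TPX2 at -0.35 and -0.31. DLGAP5 (HURP) did not pass in any comparison.

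Of the 6 genes of chromosome structure, 2 fell and 3 rose with imatinib, and 4 fell with nilotinib, by their brightest probe sets. Of all genes tested, 17.3% fell and 22.0% rose with imatinib, and 23.5% fell with nilotinib. MKI67 and SMC4, counted as lower with both drugs, had other probe sets that were called higher, in SMC4 with nilotinib only. They are given last. TOP2A, the topoisomerase that untangles sister chromatids, had signals of 2851, 2752, 2326 and 2747 with DMSO, 3180, 3422, 2893 and 3012 with imatinib and 2164, 2092, 2541 and 2080 with nilotinib. The imatinib arrays lay above all DMSO arrays, and 3 of the 4 nilotinib arrays below them. It rose by 0.23 with imatinib (SE 0.08, adjusted p = 0.0366) and fell by 0.26 with nilotinib (SE 0.08, adjusted p = 0.0112), and the drugs differed by -0.49 (95% interval -0.67 to -0.32, adjusted p = 0.000928). The rise was 0.0029 after centring on the array medians, and it was lost without imatinib 5 or 6 or DMSO 11 (adjusted p from 0.0728 to 0.148). The fall was lost with quantile normalization (-0.10) and cyclic loess (-0.15). Without the arrays of high actin ratio none of the 3 passed, at 0.15 (adjusted p = 0.253), -0.21 (adjusted p = 0.0844) and -0.36 (adjusted p = 0.0838). The other TOP2A probe set fell by 0.40 with nilotinib, had 0.16 with imatinib without passing, and differed between the drugs by -0.56.

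NCAPG, a subunit of condensin I, gave 1230, 937, 957 and 931 with DMSO, 1496, 1495, 1213 and 1356 with imatinib and 1186, 900, 969 and 972 with nilotinib. It rose by 0.45 with imatinib (SE 0.11, adjusted p = 0.00261), or 0.23 after centring (adjusted p = 0.209), and nilotinib minus imatinib was -0.46 (adjusted p = 0.00966), or -0.40 without the arrays of high actin ratio (adjusted p = 0.107). The other NCAPG probe set had 0.17 with imatinib without passing (adjusted p = 0.223) and fell by 0.27 with nilotinib (adjusted p = 0.0346), where the brightest had -0.0078. NCAPH, another condensin I subunit, gave 401, 327, 423 and 348 with DMSO, 168, 397, 333 and 513 with imatinib and 181, 248, 205 and 174 with nilotinib. Nilotinib lay below DMSO on all arrays, with a fall of 0.85 (SE 0.24, adjusted p = 0.00531), while the imatinib arrays spread from 168 to 513 and gave -0.18 (adjusted p = 0.592). SMC2, a core condensin protein, gave 976, 831, 835 and 823 with DMSO, 965, 986, 1188 and 999 with imatinib and 1053, 901, 1023 and 1006 with nilotinib. Its rise of 0.25 with imatinib (adjusted p = 0.0434) was lost without imatinib 7 or 8 or DMSO 10, 11 or 12 (adjusted p from 0.0559 to 0.157), and was 0.02 after centring. A dimmer SMC2 probe set fell by 0.48 with nilotinib, where the brightest gave 0.20 without passing.

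In 2 members the probe sets passed in opposite directions, MKI67 with both drugs and SMC4 with nilotinib only. No single direction can be given there. MKI67, which encodes the proliferation antigen Ki-67, a coat of mitotic chromosomes, had signals of 1368, 1189, 1425 and 1270 with DMSO, 446, 614, 732 and 796 with imatinib and 488, 555, 723 and 567 with nilotinib on its brightest probe set. There every treated array lay below every DMSO array, with -1.03 for imatinib (SE 0.15, adjusted p = 1.69e-05) and -1.16 for nilotinib (SE 0.15, adjusted p = 2.57e-06). A pair of dimmer MKI67 probe sets rose with both drugs, by 0.90 and 0.96 with imatinib and by 0.82 and 0.79 with nilotinib. The remaining one gave -0.17 with imatinib, which did not pass, and fell by 0.30 with nilotinib. SMC4, the partner of SMC2, gave 5059, 4563, 5236 and 4921 with DMSO, 4298, 4426, 3981 and 3961 with imatinib and 3870, 3433, 3527 and 3523 with nilotinib. The 3 groups did not overlap, with -0.25 for imatinib (SE 0.07, adjusted p = 0.00579) and -0.46 for nilotinib (adjusted p = 9.29e-06). Its next probe set fell with both drugs (-0.66 and -0.72), and the dimmest rose by 0.49 with nilotinib (adjusted p = 0.0489). The SMC4 difference between the drugs, -0.21 (adjusted p = 0.0368), was lost without nilotinib 2, 3 or 4 or imatinib 5 or 6 (adjusted p from 0.0704 to 0.111), and with quantile normalization and cyclic loess (-0.11 each).

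Of the 54 members, 33 had 1 probe set past the filter and 21 had several. Among those 21, the probe sets had the same sign in 12 members with imatinib, 15 with nilotinib and 15 between the drugs. CDK1 and TOP2A are members whose probe sets lay on the same side of 0 under nilotinib.

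**Figure D4:**
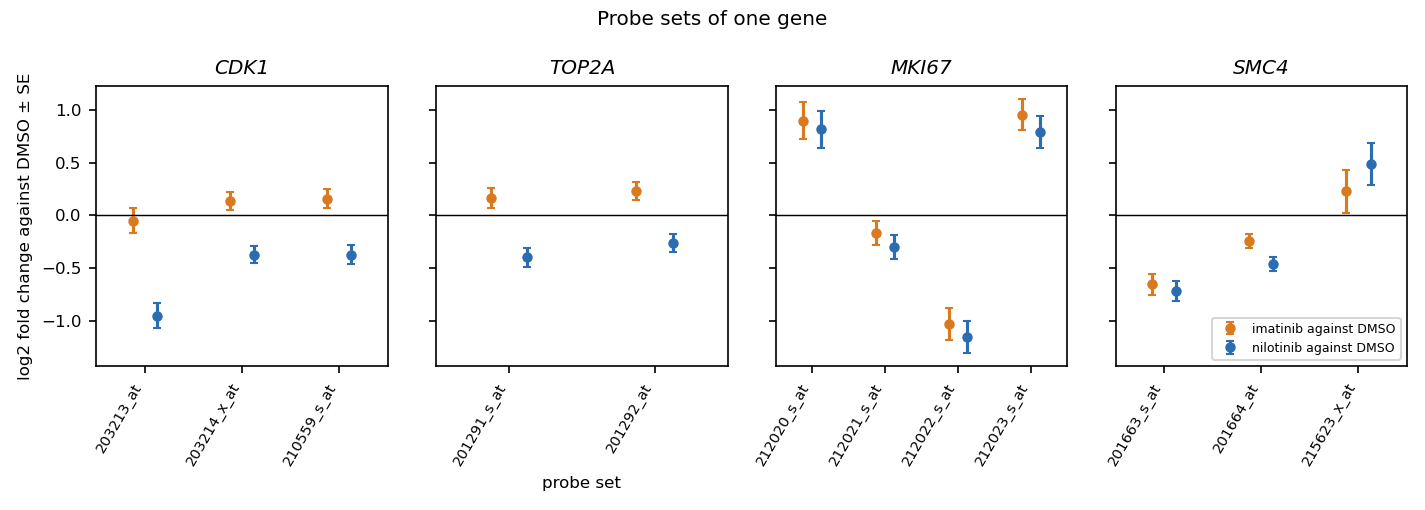
Points are log2 fold changes against DMSO of each probe set past the filter for CDK1, TOP2A, MKI67 and SMC4, with 1 SE, imatinib in orange and nilotinib in blue. The 3 CDK1 and both TOP2A probe sets lie below 0 with nilotinib, whereas MKI67 ranges from -1.16 to 0.82 and SMC4 from -0.72 to 0.49.

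Other genes of the same processes were looked at from 6 further lists of 130 genes, of which 103 had a probe set and 96 were tested. In these, 16 fell and 18 rose with imatinib, 27 fell and 22 rose with nilotinib, and 19 were lower and 2 higher with nilotinib than with imatinib. Of all genes tested, 17.3% fell and 22.0% rose with imatinib, and 23.5% fell and 34.7% rose with nilotinib. Between the drugs 8.22% were lower and 5.82% higher. The same shares apply to the counts of each list below. The medians of the 96 genes were 0.06, -0.04 and -0.07, nearer to those of all genes (0.09, 0.15 and 0.05) than the medians of the 54 members were. Of 13 genes of the anaphase-promoting complex and checkpoint, 5 fell and 3 rose with nilotinib. They included UBE2S, the ubiquitin-conjugating enzyme that extends chains for the complex, at -0.54 with imatinib (adjusted p = 0.00114) and -0.95 with nilotinib (adjusted p = 1.44e-06), and ANAPC2, the cullin subunit, which rose by 0.57 and 0.60. Of 14 cohesin and condensin genes, 2 fell and 4 rose with nilotinib. NIPBL, the cohesin loader, fell with both drugs (-0.87 with imatinib, -1.21 with nilotinib), and STAG1, a cohesin subunit, rose by 0.82 and 0.89.

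Among 19 other kinetochore and passenger genes, 6 were lower and 1 higher with nilotinib than with imatinib. CENPU, of the constitutive centromere network, differed by -0.57 (adjusted p = 9.39e-05), and CENPO, of the same network, by 0.83 (adjusted p = 0.01). SPC25, of the NDC80 complex, fell with both drugs (-0.40 with imatinib, -0.79 with nilotinib). Of 14 other kinases, brakes and phosphatases of mitotic entry, 6 fell and 4 rose with nilotinib. CDC14B, a phosphatase, fell with both drugs (-0.81 with imatinib, -1.13 with nilotinib). PBK, a mitotic kinase, fell as well (-0.64 and -1.13), as did CKS1B, a CDK subunit (-0.28 and -0.83), and both were lower with nilotinib than with imatinib (-0.49 and -0.55).

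Of 21 other genes of the spindle, centrosome and cytokinesis, 5 fell and 4 rose with nilotinib. CEP55, which recruits the abscission machinery to the midbody, had a mean signal of 679 ± 84.5 (SD, n = 4) with DMSO, where imatinib gave 285 ± 50.3 and nilotinib 204 ± 11.8, and fell with both (log2 fold changes of -1.22 and -1.65). PCNT, pericentrin, rose by 0.68 and 0.98. KIFC1, a minus-end motor, rose by 0.52 with imatinib (adjusted p = 0.0286) and gave -0.35 with nilotinib (adjusted p = 0.102), and the drugs differed by -0.87 (adjusted p = 0.00429). Of 15 transcriptional regulators of these genes, 4 fell and 4 rose with nilotinib. E2F5, which binds the pocket proteins of DREAM, fell with both drugs, at -1.42 with imatinib (adjusted p = 0.000162) and -1.33 with nilotinib (adjusted p = 0.000187), while the repressor E2F8 rose by 0.83 and 0.51. RBL2, the pocket protein p130 of DREAM, rose by 0.46 with imatinib (adjusted p = 0.00829) and 0.71 with nilotinib (adjusted p = 0.000148). MYBL2, or B-MYB, did not pass, at 0.30 with imatinib (adjusted p = 0.098) and -0.03 with nilotinib (adjusted p = 0.845). All values of these further lists are uncentred. Centring on the array medians moved the median of all genes from 0.09 to -0.13 with imatinib and from 0.15 to -0.37 with nilotinib. The rises named in these lists are therefore smaller after it, and their centred values are not given here.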

How the data were processed

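Total RNA of 12 K562 samples, 4 per group by their titles, was hybridised to 1-colour arrays, and all columns of the deposited table matched a sample (0 left unmapped). The intensity values deposited by the authors are linear signals from MAS5, per the submitters' processing notes, with the version of MAS5 not given in the sources used here. On each array the mean without the upper and lower 2% of values was 499.9, so they were used as deposited. MAS5 scales each array by 1 factor, so a shift in overall composition between groups stays in the values.

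Values were taken as log2(signal + 16), which understates changes of dim genes. Probe sets were named through the platform annotation: of 22215 without controls, 19064 named 1 gene, 1043 several and 2108 none. Those below the 40th percentile of mean signal were dropped, and the brightest per gene was kept, leaving 8021 genes. Of 90 probe sets naming a member alone, 83 passed. limma 3.58.1 in R 4.3.3 fitted 1 mean per group with a variance trend (9 residual degrees of freedom), with Benjamini-Hochberg adjustment over all genes in each of 3 comparisons. Promoters are the first entry of each gene in the RefSeq table. The scripts were tested on simulated data. Alternatives covered the pseudocount, filter, normalization, probe set choice, model and left-out arrays.

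The members, the other lists and the naming rule were chosen with earlier results of these data known. Named with every array's signal are, per role and comparison, up to 3 called members of largest change, members with opposite probe sets, and CCNB1, CDK1, PLK1, AURKA, AURKB, CDC20, BUB1, MKI67, TOP2A and FOXM1. Other members and pathway genes given with fold changes were chosen after their values were seen. Python 3.11.15 with matplotlib 3.10.9 drew the figures. The number of arrays limits the precision.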

Additional observations from a re-analysis of the deposited data

Results flagged for a closer look

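Among 162 groups of 4 arrays (54 members in 3 groups), 10 had 1 array set apart from the other 3, where chance gives about 1 in 20. CCNB1 had DMSO array 12 at 2983, below the others, and imatinib array 6 at 3308, above them. CCNF had imatinib array 5 at 309.7, and BUB1B imatinib array 7 at 771.6, both the lowest of their group. UBE2C stood at 172.8 on nilotinib array 4 and KIF18A at 468.9 on nilotinib array 2. KIF4A had imatinib array 6 at 567.4. NCAPG and SMC2 had DMSO array 9 as the highest of its group, at 1229.5 and 976.2, and SMC2 also had imatinib array 7 at 1187.6.

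TOP2A was set apart because it was called higher with imatinib and lower with nilotinib, and the difference between the drug effects was -0.49 on the log2 scale (limma, adjusted p = 0.000928, all 4 nilotinib arrays below all 4 imatinib arrays). The difference was -0.36 without the arrays of high actin ratio, where it did not pass (adjusted p = 0.0838).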

How the results depend on the processing

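No paired analysis was possible because the sample numbers run from 1 to 12 over the 3 groups, so that the groups share no replicate number. Leaving out 1 array at a time gave 6 to 10 members lower and 8 to 11 higher with imatinib, 26 to 27 lower and 2 to 3 higher with nilotinib, and 19 to 26 lower and 0 to 0 higher between the drugs. Of all genes, 15.4% to 18.0% were then lower and 18.9% to 23.0% higher with imatinib. With nilotinib these shares were 21.7% to 23.6% and 31.9% to 34.7%, and between the drugs 5.53% to 7.77% and 3.09% to 5.43%. All 28 calls with nilotinib were kept whichever array was left out, as were 12 of 19 with imatinib and 18 of 26 between the drugs. Centring on the array medians gave 17 lower and 2 higher with imatinib, 50 and 0 with nilotinib, and 47 lower between the drugs. Of all genes, 28.4% were then lower and 10.2% higher with imatinib, 49.2% and 10.4% with nilotinib, and 33.0% lower between the drugs. Under this centring 10 members changed sign with imatinib, 14 with nilotinib and 5 between the drugs. Of those called before or after it, the nilotinib values of CDC25B (-0.39), PLK4 (-0.43), ZWINT (-0.46), CENPM (-0.45), KIF15 (-0.49), KIF20A (-0.51), KIF22 (-0.017), KIF23 (-0.49), KIF4A (-0.47), SPAG5 (-0.41), RACGAP1 (-0.47) and SMC2 (-0.32) turned negative, as did CENPF between the drugs (-0.29). CCNF (-0.44) and UBE2C (-0.16) with nilotinib also turned negative without being called. Without probe sets of the _x_at and _s_at kinds, 35 members were tested, with 5 lower and 6 higher with imatinib, 17 lower and 1 higher with nilotinib, and 15 lower between the drugs. Of the 4952 genes then tested, 15.7% were lower and 20.8% higher with imatinib, 21.1% and 35.5% with nilotinib, and 6.62% and 5.39% between the drugs. BIRC5 with imatinib was then 0.17, and SMC2 was -0.20 with imatinib and -0.48 with nilotinib. Averaging all probe sets of a gene gave 5 lower and 10 higher with imatinib, 25 and 2 with nilotinib, and 22 lower and 0 higher between the drugs. Of all genes, 16.2% were then lower and 21.7% higher with imatinib, 22.1% and 35.5% with nilotinib, and 7.39% and 5.78% between the drugs. MKI67 was then at 0.16 for imatinib and 0.037 for nilotinib. Without the 4 arrays of high actin ratio, 15 members were lower between the drugs, where 3.85% of all genes were. In the latter fewer arrays were tested, and the cause of the other changes was not tested.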
